A study of Mus musculus with 6 samples.

Results

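Transcripts of 40 genes of cell proliferation, 18 of DNA replication and 22 of mitosis, were followed in macrophages sorted from the inflamed mouse colon. The genes were taken from a fixed list of names and matched by symbol, and each of the 40 had 1 row among the 25124 gene rows of the expression table. Values are TPM, a transcript level scaled for length and sequencing depth. The comparison asks whether these genes differ when E4BP4, the basic leucine zipper repressor encoded by Nfil3, is overexpressed in macrophages.

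The wild type group (3 libraries) and the transgenic group (3 libraries) both came from C57BL/6 mice aged 8 weeks. Both groups drank dextran sulfate sodium, which injures the colonic epithelium, at 2.0% for 7 days, had plain water for 7 days and were sampled on day 14, so no group without colitis is part of the comparison. The labels call the transgene macrophage-specific, name no promoter, and write the gene in the genotype field as E4BP4, E4BP5 and E4BP6 for transgenic replicates 1, 2 and 3, while all 3 titles read E4BP4. Nothing in them ties each library to a mouse of its own. The p-values therefore rest on differences among these libraries alone and may reflect technical spread. Each library holds 13973424 to 15063958 reads in genes. Nfil3 stood at 119 ± 1.40 TPM in wild type against 136 ± 3.99 TPM in the transgenic group (mean ± SD of 3 libraries each; adjusted p by limma = 0.00261). Macrophage markers were abundant: Csf1r, the receptor for the macrophage growth factor, was at 983 and 1094 TPM and Adgre1, encoding F4/80, at 361 and 426 TPM. Of 12 macrophage markers, 4 were higher and 6 lower in the transgenic group at a limma adjusted p below 0.05.

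A cell that divides first loads the MCM helicase onto replication origins, then fires the origins and copies its DNA with the sliding clamp PCNA and nucleotides made by ribonucleotide reductase and thymidylate synthase. It then builds cyclin B with Cdk1, condenses and aligns its chromosomes on a spindle and separates them once the anaphase-promoting complex is switched on. Most replication genes are transcribed through E2F factors and most mitotic genes later, through complexes of B-Myb and Foxm1, which bind an element called CHR. Most macrophages of the adult colon are replenished by blood monocytes, and only a small share of them divides.

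Promoter sequences are shown because they set these 2 classes apart by letters that the choice of genes did not use. RefSeq promoter windows (GRCm38.p6, the assembly also called mm10), from 250 bases before to 50 bases after the transcription start, matched 33 members, 15 of replication and 18 of mitosis. An E2F site, searched as TTTCCCGC or TTTGGCGC on both strands, was found in 6 of the 15 replication windows (Mcm3, Mcm5, Mcm6, Mcm7, Cdc6 and Cdt1) and in 0 of the 18 mitotic ones, against 3.17% of the windows of tested genes. The CHR, searched as TTTGAA on both strands, was found in 13 of 18 mitotic windows (Mki67, Top2a, Ccnb2, Cdk1, Cdc20, Bub1b, Aurka, Plk1, Kif11, Cenpa, Cenpf, Ube2c and Hmmr) and in 2 of 15 replication windows (Mcm2 and Cdc45), against 12.3% of tested genes. The CCAAT box, read on both strands, was in 16 of 18 mitotic and 10 of 15 replication windows, against 38.0%. The E4BP4 sites TTATGTAA and TTACGTAA, also read on both strands, were in 0 of the 33 windows and in 0.567% of those of tested genes. These motifs do not overlap one another in the stretches shown. A match is a run of letters, not a bound site, and its absence says only that these letters are not in the window.

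The following stretches, upstream of the start and 5′ to 3′ on the gene's strand, show the 2 arrangements. Capitals mark the E2F sites and CCAAT boxes in Mcm5 and Mcm6, and the CHR and CCAAT boxes in Top2a, Ube2c and Cdk1.
Mcm5, chr8:75109354-75109498, plus strand: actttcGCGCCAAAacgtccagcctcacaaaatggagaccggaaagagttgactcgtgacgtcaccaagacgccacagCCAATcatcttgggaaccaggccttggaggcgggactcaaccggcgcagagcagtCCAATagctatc
Mcm6, chr1:128359711-128359820, minus strand: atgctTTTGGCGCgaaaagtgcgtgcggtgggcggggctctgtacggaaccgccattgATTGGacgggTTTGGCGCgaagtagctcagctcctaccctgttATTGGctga
Top2a, chr11:99024200-99024294, minus strand: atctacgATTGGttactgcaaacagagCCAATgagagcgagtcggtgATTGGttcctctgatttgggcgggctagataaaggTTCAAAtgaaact
Ube2c, chr2:164769834-164769913, plus strand: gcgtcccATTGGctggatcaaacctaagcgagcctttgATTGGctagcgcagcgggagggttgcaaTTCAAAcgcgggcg
Cdk1, chr10:69352918-69352997, minus strand: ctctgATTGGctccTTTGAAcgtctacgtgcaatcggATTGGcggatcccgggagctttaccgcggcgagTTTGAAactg

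In Mcm6 the E2F sites begin 110 and 47 bases before the start, and in Mcm5 the single site begins 149 bases before it. In Top2a, Ube2c and Cdk1 a CHR begins 23, 29 and 15 bases before the start, with CCAAT boxes farther upstream. Birc5, Nusap1, Tyms, Rfc4 and Ccne1 held none of the 4 motifs.

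Most differences in both classes were small and negative, and 1 of the 40 genes passed the test. The test was limma on log2(TPM + 1) over the 12633 genes whose mean reached 1 TPM in either genotype, all 40 members included, with p-values adjusted by Benjamini-Hochberg and a call at an adjusted p below 0.05. Of the 40 members 0 were called higher and 1 lower, Birc5, a share of 2.50%, where 21.9% of all tested genes were called in either direction and 13.2% were called lower. Among tested genes whose mean level lay within the members' range (1.16 to 91.0 TPM), 19.4% were called. For 39 of the 40 members the 95% interval of the difference lay within 1.5-fold of TPM + 1 in either direction, as it did for 81.5% of tested genes. For genes of low level this bound on TPM + 1 allows a larger fold change of the TPM itself.

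**Figure D1:**
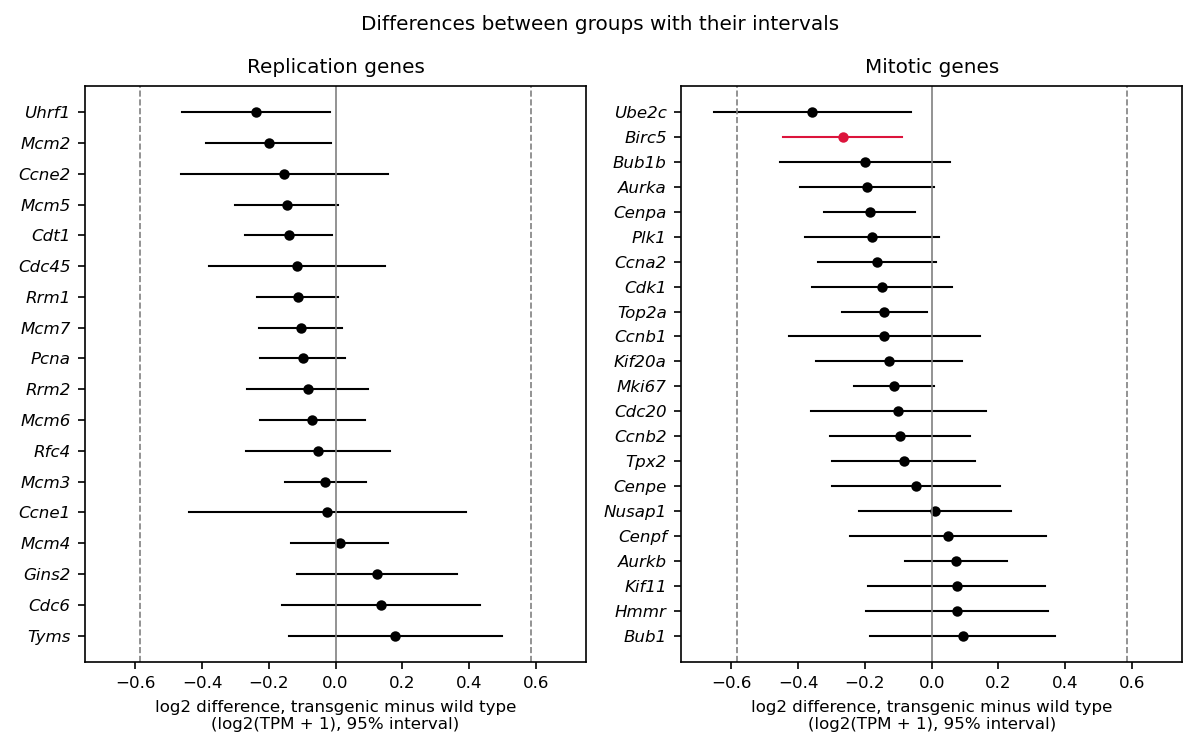
Log2 difference of each of the 40 genes, transgenic minus wild type, on the log2(TPM + 1) scale (x axis), with its 95% interval from limma (3 libraries a group). Dashed lines mark a 1.5-fold change of TPM + 1, and red marks the gene with an adjusted p below 0.05, Birc5. Points lie between -0.36 and 0.18, and 30 of the 40 lie left of 0.

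Below 0 lay 30 of the 40 differences, 14 of 18 for replication and 16 of 22 for mitosis, against 52.6% of tested genes. The median log2 difference was -0.091 for replication genes and -0.12 for mitotic genes, where that of all tested genes was -0.012. With upper-quartile scaling these medians were -0.055, -0.087 and 0.021, and the genes called higher and lower went from 1100 and 1666 to 1425 and 1315. At an unadjusted p below 0.05 stood 3 replication genes (Cdt1, Mcm2 and Uhrf1) and 4 mitotic genes (Birc5, Cenpa, Ube2c and Top2a), all lower. These are 17.5% of the members, where 20.5% of all tested genes were lower at that threshold. The groups did not overlap for 12 members, all lower in transgenic libraries: Mcm7, Rrm1 and Cdt1 of replication, and Mki67, Top2a, Birc5, Ccna2, Cdk1, Aurka, Plk1, Cenpa and Ube2c of mitosis. That is 16.7% of replication and 40.9% of mitotic genes. Of all tested genes, 22.3% did not overlap with the transgenic group lower and 17.1% with it higher. In bulk RNA, fewer cells in cycle and less of these RNAs per cell cannot be told apart.

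**Figure D2:**
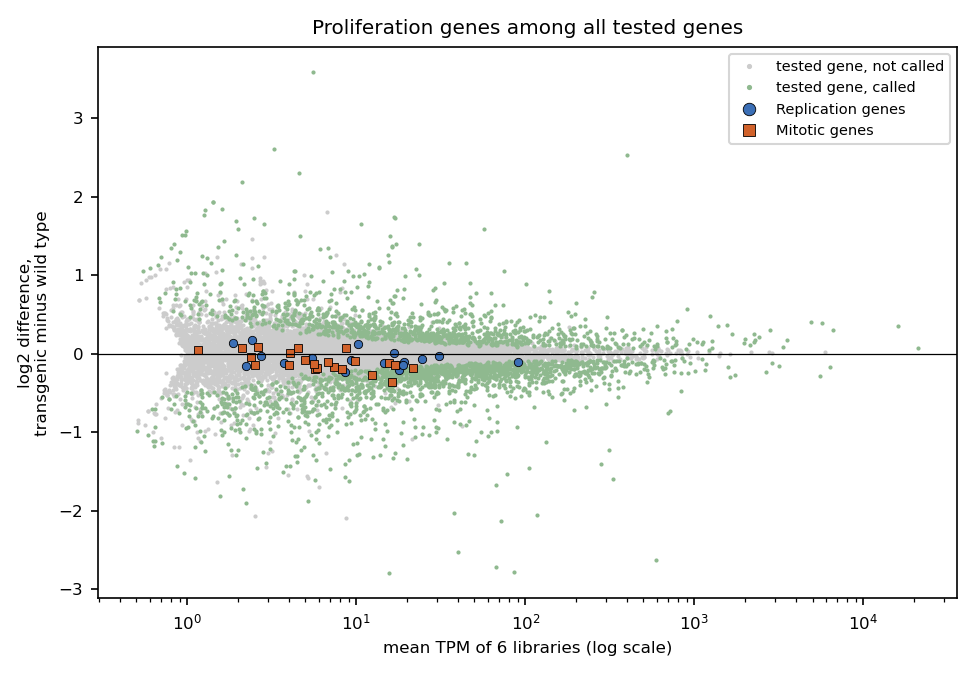
Log2 difference (y axis, transgenic minus wild type, log2(TPM + 1)) against mean TPM over the 6 libraries (x axis, log scale) for the 12633 tested genes, with called genes in green and the 18 replication and 22 mitotic genes as large symbols. The members lie between -0.36 and 0.18, and the far more numerous tested genes between -2.80 and 3.59. The quartiles are -0.15 and -0.016 for the members and -0.14 and 0.12 for all tested genes.

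The levels of the members spanned 1.16 TPM (Cenpf) to 91.0 TPM (Pcna). Pcna, the sliding clamp, which also serves DNA repair, stood at the 92.8th percentile of tested genes and Mcm3 followed at 31.0 TPM. Mki67, the source of the Ki-67 antigen, was at 15.5 TPM over the 6 libraries. The median member level was 12.3 TPM for replication and 5.79 TPM for mitosis. Between libraries of a group the members varied by a median coefficient of variation of 7.58%, close to the 6.55% that counting their reads alone would give.

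**Figure D3:**
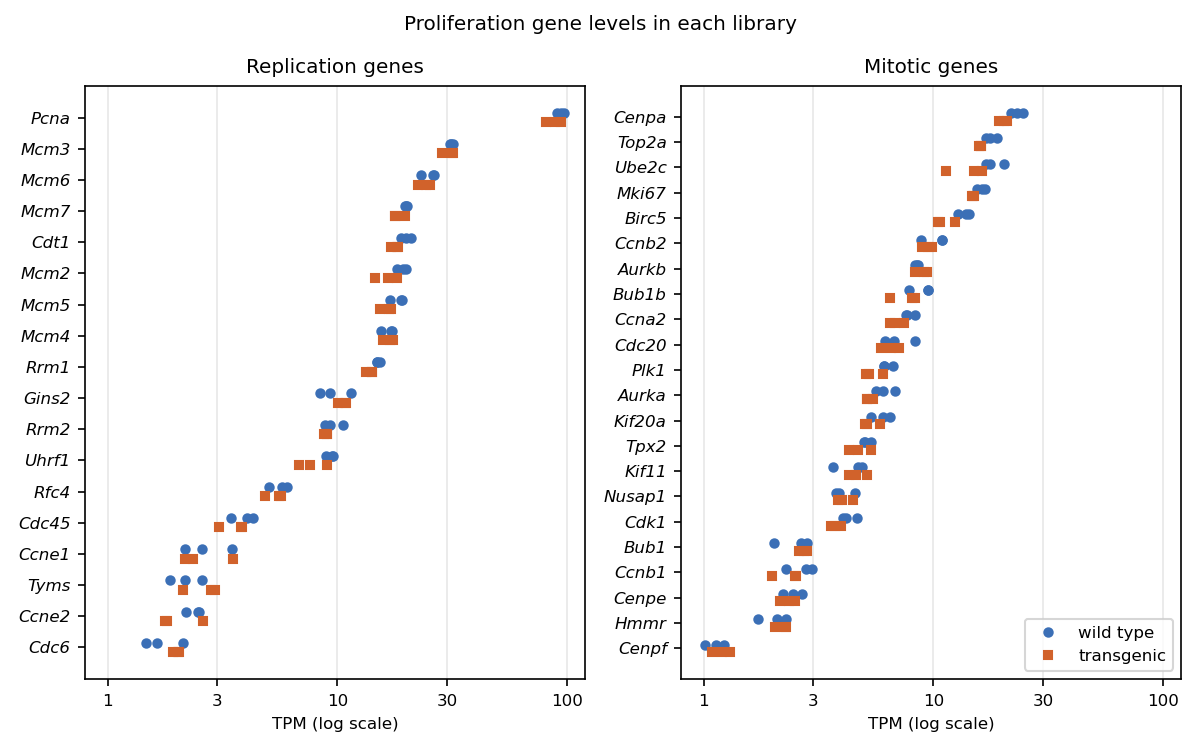
TPM of each gene (x axis, log scale) in the 3 wild type (blue circles) and 3 transgenic (orange squares) libraries, genes ordered by mean level. The symbols of both groups lie near each other in every row, and for Mki67, Top2a and Cenpa all 3 squares lie left of all 3 circles.

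The MCM2-7 helicase subunits unwind DNA at the fork and assemble as a hexamer. Mcm2 was at 18.2, 19.8 and 19.3 TPM in wild type against 14.6, 18.3 and 16.7 TPM in the transgenic group. Transgenic replicate 1 was the lowest and replicate 2 just exceeded the lowest wild type library, so the groups overlapped (log2 difference -0.20 ± 0.081 SE, limma adjusted p = 0.119). Mcm7 was at 19.9, 20.1 and 19.8 against 17.9, 19.7 and 17.9 TPM, without overlap but with transgenic replicate 2 close to wild type (adjusted p = 0.216 by limma). Mcm5 was at 18.4 ± 1.20 and 16.5 ± 0.929 TPM (mean ± SD of 3 libraries each; adjusted p by limma = 0.159). Mcm3 and Mcm4, at 31.0 and 16.7 TPM over all libraries, differed by -0.030 and 0.013 on the log2 scale, and Mcm6 by -0.070. The 95% intervals of Mcm3 and Mcm4 ran from -0.15 to 0.090 and from -0.13 to 0.16. The signs of Mcm3 and Mcm4 flipped under other processing: Mcm3 was at 0.0062 with upper-quartile scaling and Mcm4 at -0.069 in the authors' deposited table.

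Among licensing and firing factors, Cdt1, which loads the helicase with Cdc6, was at 18.8, 19.9 and 20.8 TPM in wild type against 18.2, 18.4 and 17.1 TPM in the transgenic group. All 3 transgenic values lay below the wild type ones (log2 difference -0.14 ± 0.056 SE, limma adjusted p = 0.118). Cdc6 itself was at 1.75 ± 0.343 and 2.00 ± 0.0592 TPM, and Gins2 of the firing complex at 9.72 ± 1.55 and 10.6 ± 0.444 TPM (SD, n = 3 each), both with a positive difference and overlapping groups. Cdc45, the partner of Gins2 in the active helicase, was at 3.94 and 3.56 TPM. Pcna was at 94.4, 97.4 and 90.3 against 81.0, 88.8 and 93.9 TPM, where transgenic replicate 3 lay inside the wild type range (limma adjusted p = 0.250). Rfc4, a subunit of the clamp loader, was at 5.62 and 5.38 TPM.

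Of the enzymes that supply nucleotides, Rrm1, the large subunit of ribonucleotide reductase, was at 14.95, 14.96 and 15.37 TPM in wild type against 13.3, 14.1 and 14.2 TPM in the transgenic group. These ranges did not overlap, and the adjusted p was 0.165 by limma. Its S phase partner Rrm2 was at 9.57 ± 0.949 and 8.95 ± 0.146 TPM, with overlap. Tyms, thymidylate synthase, had the largest positive difference of the 40 genes, 0.18 (95% interval -0.14 to 0.50), at 1.86, 2.57 and 2.18 against 2.83, 2.93 and 2.14 TPM. Transgenic replicate 3 lay within wild type. Its row is a noncoding RefSeq transcript (NR_033402), so the coding mRNA may be measured in part only.

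Uhrf1, which carries DNA methylation to the new strand, had the most negative difference among replication genes, -0.24 ± 0.096 SE (limma adjusted p = 0.119). It was at 8.95, 9.50 and 9.57 TPM in wild type against 8.99, 6.83 and 7.62 TPM in the transgenic group, and transgenic replicate 1 lay inside the wild type range. Without that library it passed the test (limma adjusted p = 0.0381), the only replication gene to do so in the fits that left out 1 library. The E cyclins, which drive entry into S phase, were scattered: Ccne1 ranged from 2.18 to 3.49 TPM in wild type against from 2.18 to 3.53 TPM in the transgenic group, and Ccne2 was at 2.39 and 2.07 TPM.

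Birc5, encoding survivin of the chromosomal passenger complex, was at 12.8, 14.2 and 13.9 TPM in wild type against 10.6, 12.4 and 10.5 TPM in the transgenic group. All transgenic values were lower, transgenic replicate 2 by the least, and the ratio of means was 0.820 (log2 difference -0.27 ± 0.077 SE, limma adjusted p = 0.0441), from 135 to 176 reads per library. The call was lost without any of wild type replicates 1, 2 and 3 (limma adjusted p = 0.0520, 0.122 and 0.113) and without transgenic replicates 1 and 3 (0.129 and 0.132). It was also lost with no filter on low values (0.0768), with upper-quartile scaling (0.0674), with limma-voom on read numbers (0.150) and in the authors' deposited table (0.173). Aurkb, the kinase of the same complex, was at 8.43 ± 0.133 and 8.92 ± 0.513 TPM (SD, n = 3 each), a difference of 0.073 with a 95% interval of -0.081 to 0.23.

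Ube2c, the ubiquitin-conjugating enzyme of the anaphase-promoting complex, had the most negative difference of all members, -0.36 ± 0.13 SE. Its values were 20.4, 16.9 and 17.6 TPM in wild type against 11.3, 14.98 and 16.2 TPM in the transgenic group. The groups did not overlap, transgenic replicate 1 was by far the lowest and replicate 3 was close to wild type (limma adjusted p = 0.0849). Cdc20, the activator of that complex, was at 7.07 ± 1.12 and 6.502 ± 0.583 TPM (SD, n = 3 each), with overlap. The mitotic cyclins all had negative differences that missed the threshold: Ccna2 was at 7.86 and 6.92 TPM, Ccnb1 at 2.68 and 2.34 TPM and Ccnb2 at 10.2 and 9.44 TPM. Cdk1, the kinase they activate, was at 4.67, 4.14 and 4.04 against 3.97, 3.73 and 3.59 TPM. No transgenic value reached the wild type range, yet the 95% interval ran from -0.36 to 0.060.

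Mki67 and Top2a, a chromosome surface protein and the topoisomerase that untangles sister DNA, did not pass the test, and their groups did not overlap. Mki67, with 1832 to 2116 reads per library, was at 15.5, 16.2 and 16.8 TPM in wild type against 14.7, 14.8 and 15.1 TPM in the transgenic group. Top2a was at 17.0, 17.6 and 18.9 against 15.8, 16.2 and 16.1 TPM. Both had changes of the mean of -8.08% and -9.97%, a log2 difference of -0.11 ± 0.052 SE and -0.14 ± 0.055 SE. The limma adjusted p was 0.162 for Mki67 and 0.106 for Top2a. The intervals place the change of each between -0.27 and 0.0063 on the log2 scale.

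Of 6 genes of mitotic kinases and the checkpoint, Birc5 and Aurkb included, 4 had negative and 2 positive differences. Aurka, which acts at the spindle poles, was at 6.81, 6.05 and 5.62 TPM in wild type against 5.45, 5.13 and 5.15 TPM in the transgenic group, and Plk1 at 6.30 ± 0.332 and 5.46 ± 0.517 TPM (SD, n = 3 each). Neither overlapped between groups (limma adjusted p = 0.153 and 0.188). The spindle checkpoint genes did not go together: Bub1b was at 8.91 and 7.64 TPM and Bub1 at 2.50 and 2.72 TPM, both with overlap.

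Of 8 genes of the centromere and spindle 4 differences lay above 0 and 4 below. Cenpa, the histone H3 variant of centromeres, was at 21.8, 23.0 and 24.7 TPM in wild type against 21.0, 19.4 and 20.3 TPM in the transgenic group. Those groups did not overlap (log2 difference -0.19 ± 0.059 SE, limma adjusted p = 0.0592), and Cenpa passed without wild type replicate 1 (0.0436). The kinetochore proteins Cenpe and Cenpf were at 2.44 and 2.33 TPM and at 1.12 and 1.19 TPM. The spindle motors Kif11 and Kif20a were at 4.41 and 4.68 and at 5.95 and 5.36 TPM. Nusap1, Tpx2 and Hmmr, which bind spindle microtubules, differed by 0.0099, -0.084 and 0.076 on the log2 scale. All 7 of these genes had overlapping groups.

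Summed over its genes, each class was lower in every transgenic library. The 18 replication genes together reached 301, 309.7 and 309.6 TPM in wild type against 283, 291 and 291 TPM in the transgenic group. The 22 mitotic genes reached 179, 178 and 178 TPM against 155, 163 and 163 TPM. The ratio of the replication sum to the mitotic sum was 1.72 ± 0.0343 in wild type and 1.80 ± 0.0232 in transgenic libraries (SD, n = 3 each), with ranges of 1.68 to 1.74 and 1.79 to 1.83. The sums weigh genes by level, and Pcna, at 94.0 and 87.9 TPM, is the largest term of the replication sum. With each gene weighted alike, the median deviation from the gene mean went from 0.060 ± 0.027 to -0.033 ± 0.041 for replication and from 0.050 ± 0.022 to -0.042 ± 0.0058 for mitosis (log2, SD, n = 3 each). The median deviation over all tested genes went from 0.0097 ± 0.0019 to -0.0070 ± 0.0033. The replication median minus the mitotic median was 0.0098 ± 0.025 in wild type and 0.0092 ± 0.045 in transgenic libraries. Whether the 2 classes differ in their change was not tested.

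**Figure D4:**
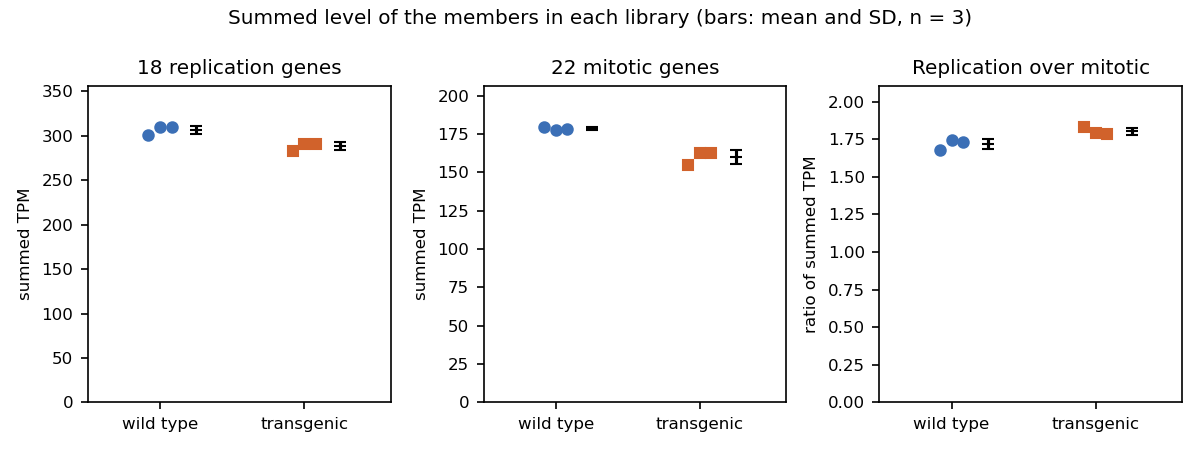
Summed TPM of the 18 replication genes, of the 22 mitotic genes and the ratio of the sums (y axes, from 0) in each wild type and transgenic library, with the mean and SD of 3 libraries beside the points. Both sums are lower in the 3 transgenic libraries (283 to 291 against 301 to 309.7 TPM, and 155 to 163 against 178 to 179 TPM), and the ratio is higher (1.79 to 1.83 against 1.68 to 1.74).

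Limma-voom and the authors' own comparison called more members, again in the lower direction. Limma-voom on the reads recovered from the TPM values called 2 replication genes (Mcm2 and Uhrf1) and 3 mitotic genes (Mki67, Top2a and Ube2c) lower and 0 higher, where it called 16.4% of tested genes lower. The authors' deposited table called 4 replication genes (Mcm2, Mcm5, Cdt1 and Uhrf1) and 3 mitotic genes (Mki67, Top2a and Ube2c) lower at an adjusted p below 0.05, and 0 higher. Of the 20884 rows there with a fold change, 2756 were called lower and 2343 higher, together 24.4%. The log2 fold change in the authors' deposited table was -0.17 for Mki67 (adjusted p = 0.000444), -0.18 for Top2a (0.00389), -0.44 for Ube2c (0.0141) and -0.25 for Mcm2 (0.00613). Over the limma fit and its 13 alternatives, the authors' comparison among them, 9 members (22.5%) were called at least once, all lower, and 31 never. Of all tested genes 40.5% were called at least once in the same fits, in either direction.

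Other genes of the same processes, from lists that hold none of the 40, were centred closer to 0. Their counts stand beside 21.9% of all tested genes called in either direction and 13.2% called lower. Of 38 tested further replication genes 1 fell, 0 rose, and the median log2 difference was -0.0089. Fen1, the flap endonuclease of lagging strand synthesis, fell from 18.7 ± 1.89 to 15.1 ± 1.153 TPM (mean ± SD of 3 libraries each; adjusted p by limma = 0.0449), a call lost without 5 of the 6 libraries in turn, all but wild type replicate 2 (highest limma adjusted p = 0.134), with no filter (0.0831) and with upper-quartile scaling (0.0677). Prim1 and Prim2, the primase subunits, differed by -0.22 and 0.21 and Clspn by -0.29, none called. The most abundant of the list, Rfc2, Slbp and Rpa1, stood at 38.9 and 40.02, 22.9 and 24.1, and 21.3 and 22.3 TPM.

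Of 48 further mitotic genes 2 rose and 3 fell, with a median of -0.052. Pttg1, the securin that holds separase inactive, rose from 23.1, 28.0 and 25.2 TPM to 34.0, 34.8 and 33.9 TPM (log2 difference 0.42 ± 0.067 SE, limma adjusted p = 0.00357). Espl1, separase itself, rose from 6.36 ± 0.482 to 8.32 ± 0.372 TPM (mean ± SD of 3 libraries each; adjusted p by limma = 0.0168), a call lost without transgenic replicate 1 or 2 (highest adjusted p = 0.0628). The nuclear lamina gene Lmnb1 fell from 45.2 to 34.8 TPM and the tubulin gene Tubb4b from 33.0 to 25.02 TPM, both also used by cells that do not divide. Kif2c, a microtubule depolymerase of centromeres, fell from 5.75 to 4.07 TPM at a limma adjusted p of 0.0490, which was lost without any 1 of the 6 libraries (highest 0.145), with no filter (0.103) and with upper-quartile scaling (0.0657). The abundant Tubb5 was at 189 and 185 TPM, and Bub3 at 37.1 and 32.9 TPM. Pttg1, Lmnb1 and Tubb4b kept their calls in each of the 13 alternatives.

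Among the regulators upstream of the members, 1 of 19 transcription factors and 1 of 8 G1 cyclins and kinases fell, and 0 rose. These are 5.26% and 12.5%, where 13.2% of all tested genes were called lower. Foxm1, which activates mitotic genes, was at 4.69, 3.93 and 4.61 TPM in wild type against 3.92, 3.25 and 3.91 TPM in the transgenic group, just without overlap (limma adjusted p = 0.206). E2f1 was at 16.3 and 15.2 TPM, E2f2 at 3.47 and 3.40, E2f8 at 4.94 and 4.52, Mybl2 at 1.51 and 1.34 and Myc at 21.8 and 20.2 TPM, none called. Of 19 tested cell cycle transcription factors 1 fell, Tfdp1, the partner of E2F proteins, from 21.6 to 18.3 TPM (limma adjusted p = 0.0317), lost without any of wild type replicates 1 and 2 and transgenic replicates 1 and 2 (highest 0.0932), with no filter (0.0504) and with upper-quartile scaling (0.0583). Ccnd1 and Ccnd2, the D cyclins of growth factor response, were at 34.3 and 35.8 and at 17.3 and 17.5 TPM. Their relative Ccnd3 fell from 42.0 to 35.3 TPM (limma adjusted p = 0.0238), a call lost without 4 of the 6 libraries in turn (highest 0.0788) and kept without wild type replicate 2 or transgenic replicate 1. Their kinases Cdk4 and Cdk6 were at 64.0 and 59.2 and at 7.59 and 7.15 TPM.

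Of 7 tested inhibitor genes 3 fell and 0 rose, where 13.2% of all tested genes were called lower. Cdkn1a, encoding p21, which blocks cyclin-dependent kinases, fell from 237, 233 and 233 TPM to 186, 184 and 183 TPM (log2 difference -0.34 ± 0.020 SE, limma adjusted p = 2.46e-05). Cdkn2d, an inhibitor of Cdk4 and Cdk6, fell from 19.7, 20.8 and 18.9 TPM to 15.2, 15.5 and 17.1 TPM (limma adjusted p = 0.0117). Cdkn1a and Cdkn2d were called in all 13 alternatives. Cdkn2b, of the same family and named for its call, fell from 2.45 to 1.27 TPM (limma adjusted p = 0.0240), from 19 to 49 reads per library, and lost the call without 4 of the 6 libraries in turn, wild type replicates 1 and 2 and transgenic replicates 1 and 3 (highest 0.0792), and in the authors' deposited table (0.177). Cdkn1b, which holds cells out of cycle, was at 59.8 and 56.4 TPM and Cdkn2c at 9.03 and 8.66 TPM.

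**Figure D5:**
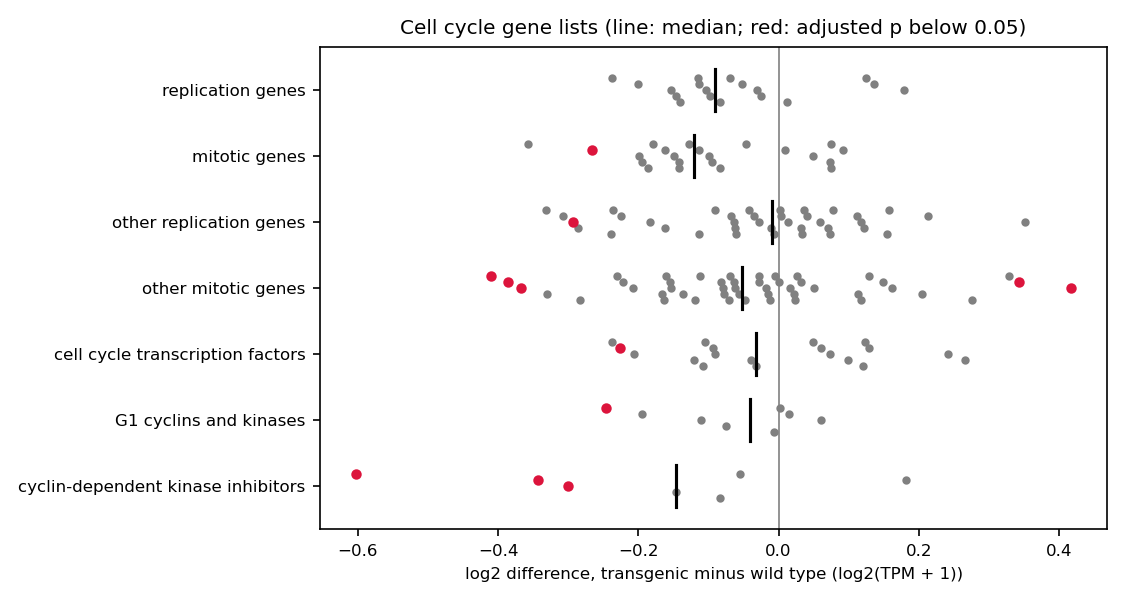
Log2 difference (x axis, transgenic minus wild type, log2(TPM + 1)) of the tested genes of 7 cell cycle lists, 1 point a gene, with the list median as a line and genes with an adjusted p below 0.05 in red. The medians run from -0.15 (inhibitors of cyclin-dependent kinases, 3 of 7 red) to -0.0089 (other replication genes, 1 of 38 red).

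Transcripts of several other cell types differed between the groups, and cells of any type can be in cycle. The counts below stand beside 21.9% of all tested genes called in either direction. The summed level of 11 epithelial markers was 1067 to 1074 TPM in wild type against 598 to 605 TPM in the transgenic group, with 8 of 11 tested fallen and 0 risen. Their most abundant, Car1, was at 497 and 164 TPM and Krt19 at 148 and 106 TPM. Of 8 markers of epithelial stem and progenitor cells, which divide rapidly, the sum was 6.94 to 8.12 TPM in wild type against 10.1 to 11.7 TPM in the transgenic group, 2 of 3 tested rising, with the stem cell receptor Lgr5 at 0.051 and 0.199 TPM, 2 to 13 reads per library. Its most abundant members were Cdca7, at 3.58 and 4.12 TPM, and Sox9, at 1.31 and 2.38 TPM.

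Of 14 T cell, NK cell and innate lymphoid markers the sum was 133 to 137 against 144 to 156 TPM, 3 of 11 tested rising, most of it Cd4, at 87.4 and 89.6 TPM, which macrophages also express. B and plasma cell markers summed to 228 to 242 against 267 to 285 TPM (1 of 7 rose), led by Jchain at 165 and 204 TPM. Neutrophil markers summed to 1023 to 1052 against 432 to 486 TPM (6 of 9 fell), led by S100a9 and S100a8, and monocyte markers to 735 to 772 against 586 to 597 TPM (4 of 8 fell, 2 rose). Markers of conventional dendritic cells summed to 84.6 to 91.1 against 113 to 122 TPM (4 of 9 rose, 1 fell), erythroid markers to 19.6 to 29.9 against 47.9 to 55.3 TPM (4 of 4 rose) and mast cell and eosinophil markers to 10.4 to 12.9 against 19.1 to 20.5 TPM (1 of 5 rose), with Epx listed at 0. Fibroblast and smooth muscle markers summed to 176 to 178 against 132 to 137 TPM (4 of 9 fell) and endothelial markers to 51.7 to 54.1 against 32.4 to 36.7 TPM (5 of 7 fell). Macrophage markers summed to 19880 to 20109 against 19233 to 19313 TPM (6 of 12 fell, 4 rose). The shares called were 27.3% for T cell, NK cell and innate lymphoid markers, 14.3% for B and plasma cell markers and 20% for mast cell and eosinophil markers. Those lie near or below the 21.9% of all tested genes. In each of the other marker lists at least 44.4% were called. The part of these cell types in the levels of the 40 genes was not tested.

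Some rows carry sequence of other genes. The library kit is not described in the labels as keeping strand, and by GENCODE M21 the exons of 10 members overlap those of a gene on the opposite strand: Mcm7, Gins2, Cdc45, Rfc4, Ccne2, Ccna2, Cdc20, Plk1, Kif20a and Nusap1. Where strand was lost, reads of the overlap cannot be assigned. Pcna, Tyms, Ccnb1 and Ccnb2 have annotated pseudogenes that could share reads. Birc5, which has neither, lies on chromosome 11 at 117849237 to 117855743 on the plus strand (NM_009689, mm10), and Ube2c on chromosome 2 at 164769929 to 164772902, plus strand (NM_026785). Mki67 lies on chromosome 7 at 135689788 to 135716379, minus strand (NM_001081117).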

How the data were processed

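Colon macrophage RNA was sequenced in 6 libraries, grouped by sample title. Per the submitters' processing notes, bcl2fastq, STAR, HOMER 4.11.1 and DESeq2 were used with build mm10; the sources used here give no settings. The authors deposited TPM per RefSeq transcript, 1 row a gene. A second table deposited by the authors holds log2 expression values, used only to check the sign of the fold changes, and log2 fold changes with p-values, of which the fold changes and adjusted p-values are quoted. Its fold changes have the sign of transgenic minus wild type in 100% of the 4583 rows checked.

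The main test was limma-trend, version 3.58.1 under R 4.3.3. It was fitted to log2(TPM + 1) with a term for genotype alone and kept genes reaching 1 TPM as a group mean. A fold change on that scale understates changes of low genes. TPM times exon length gave whole reads, within 0.1, for at least 99.9% of values up to 1000 reads; these gave 13973424 to 15063958 reads per library and fed limma-voom. A count of 0 allows up to 3 reads, at most 0.122 TPM for 2000 bases. The fit was tested on simulated reads that held counting noise alone, so it says nothing of spread beyond counting. It recovered 29 of 50 genes changed 1.25-fold, 44 of 50 changed 1.50-fold, 48 of 50 changed 2.00-fold and 50 of 50 changed 4.00-fold. Of its calls 4.97% were false. Alternatives were another pseudocount (0.1), no filter, a filter at 5 TPM, upper-quartile scaling, the replicate number as a block, each library left out, limma-voom and the authors' comparison.

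All 40 members are described. Of other lists, fixed regulators are named, and from further replication and mitotic genes the 5 with the lowest p and the 3 most abundant, from marker lists the 2 most abundant. 1 gene that this rule names is not reported here. Adgre1, Csf1r, Lgr5, Tfdp1 and Cdkn2b were named beyond that rule, after their values were seen. No promoter entry was found for 7 members, which carry no sequence statement. Members and lists were chosen with earlier results of these data known.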

Additional observations from a re-analysis of the deposited data

How the results depend on the processing

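Of 507 member values under 13 alternatives, 465 kept sign and side of the threshold. Genes called higher against lower (1100 and 1666) became 1425 and 1315 with upper-quartile scaling. Genes called higher were 690 to 874 with 1 library left out, fewest without transgenic replicates 2 (690) and 3 (719), and 2343 in the authors' deposited table, where 2756 were lower. Replication genes called lower (0) numbered 0 to 1 with 1 library left out, 2 with limma-voom and 4 in the authors' table. Mitotic genes called lower (1) numbered 0 with no filter or with upper-quartile scaling, 2 at 5 TPM, 3 with limma-voom, 3 in the authors' table and 0 to 1 with 1 library left out. The median for replication (-0.091) was -0.055 with upper-quartile scaling and -0.13 in the authors' table, that for mitosis (-0.12) -0.15 at 5 TPM, where fewer genes are tested, -0.087 with upper-quartile scaling and -0.14 in the authors' table. The cause of the other shifts was not tested.

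Signs flipped for genes near 0. With upper-quartile scaling Mcm3 was at 0.0062, Ccne1 at 0.0025 and Tubb5 at 0.0092. In the authors' deposited table Mcm4 was at -0.069, Ccne1 at 0.070 and Ccnd2 at -0.036. With 1 library left out the log2 differences ran from -0.059 to 0.021 for Mcm3, -0.031 to 0.053 for Mcm4, -0.11 to 0.0061 for Rfc4, -0.18 to 0.11 for Ccne1 and -0.18 to 0.0083 for Cdc20. They ran from -0.0079 to 0.16 for Bub1, -0.027 to 0.14 for Kif11, -0.097 to 0.0025 for Cenpe and -0.039 to 0.076 for Nusap1. For Mybl2, E2f2, Ccnd2 and Rfc2 they ran from -0.21 to 0.016, -0.11 to 0.072, -0.013 to 0.045 and -0.0051 to 0.073.

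Deviations of same-numbered libraries from their group means correlated at -0.013, -0.043 and 0.032 over 12633 genes. Among the wild type libraries, only replicate 3 correlated best with its own number. With 3 libraries a group, these correlations cannot decide whether same-numbered libraries were handled together, and the labels do not say. With the replicate number as a block, 922 genes were called higher and 1457 lower, 0 replication and 1 mitotic gene among the latter, and Fen1 (limma adjusted p = 0.0847), Kif2c (0.102) and Tfdp1 (0.0721) lost their calls.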

Other observations

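Cdkn2a, an inhibitor of Cdk4 and Cdk6 that lay under the filter on low values and was not tested, was at 0.385, 0.463 and 0 TPM in wild type and 1.53, 0.866 and 0.534 TPM in transgenic libraries, from 0 to 17 reads per library. Cdkn2a was picked after its values were seen.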
